A study of Mus musculus with 12 samples.

Results

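Matrix metalloproteinases, ADAMTS proteases and their tissue inhibitors were followed across YAP1-driven tumours in which the transgene's inducer, doxycycline, was withdrawn. Members were taken by gene symbol: every Mmp gene with a number (Mmp9 was left out), every Adamts gene with a number, and Timp1 to Timp4. Of 19937 genes measured by a probe set with a single symbol, 43 met this rule, 21 of them MMP genes, 18 ADAMTS genes and 4 TIMP genes. All were retained, with no filter on level.

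MMPs are zinc endopeptidases that are made as inactive precursors and, once activated, cut collagens, gelatin, laminin and other matrix proteins. ADAMTS proteases are secreted relatives with thrombospondin repeats; different members cut proteoglycans, trim the ends of procollagens or cut von Willebrand factor. TIMPs bind the active site of MMPs and block it, and TIMP3 also blocks several ADAM and ADAMTS enzymes. In skeletal muscle these proteins are known for their part in matrix turnover during growth and repair.

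RNA of 12 samples was hybridised to one-colour Affymetrix arrays, 3 per group. The groups were tumours at day 0 with doxycycline present (TUM), tumours 3 days (OFF3) and 6 days (OFF6) after doxycycline was removed from the host, and hindlimb muscle of uninduced mice (CTL). All donors and all CTL mice carried Myf5Cre, R26-LSL-rtTA and Col1a-Teto-hYAP1 S127A on a C57BL/6 background, so that CTL muscle held the unexpressed transgene. Each donor had 4 weeks of doxycycline before its interstitial hindlimb cells were grafted into the gastrocnemius of NOD/SCID hosts that had been given the drug too. Cre driven by Myf5 restricts the activator to cells with a Myf5 history. Tumour samples can also hold host vessels, fibroblasts, muscle and macrophages, which NOD/SCID mice keep while lacking mature T and B cells. In such bulk samples fewer cells of a type and less RNA per cell cannot be told apart. The labels do not say whether the 3 samples of a group came from separate animals, so the p-values reflect the scatter among these arrays and nothing wider.

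Marker lists gave the makeup against which the protease genes are read. Beside the counts below, 13.4% of all genes rose and 16% fell in OFF3 against TUM, and 14.9% and 16.6% in OFF6. The summed intensity of 8 skeletal fibre genes was 20351 to 21854 in TUM, 36462 to 45852 in OFF3, 37793 to 38607 in OFF6 and 69050 to 71435 in CTL. Fibroblast markers (9 genes) summed to 15253 to 15774 in TUM, 25542 to 26619 in OFF3, 18296 to 25926 in OFF6 and 12968 to 13609 in CTL, and 8 of the 9 rose and 0 fell in OFF3 against TUM. Despite the higher sum in TUM than in CTL, 3 of the 9 were higher and 5 lower there, with a median of -0.76. Over all genes 30.3% were higher and 45.9% lower in TUM than in CTL. Osteoclast markers (9 genes) summed to 7079 to 7354 in TUM, 2996 to 3215 in OFF3, 2656 to 3449 in OFF6 and 1464 to 1543 in CTL, and 0 rose and 7 fell in OFF3. The 10 macrophage markers summed to 23509 to 24226 in TUM, 25733 to 27285 in OFF3, 19402 to 26920 in OFF6 and 3021 to 3409 in CTL. Against TUM, 2 of the 10 rose and 2 fell in OFF3, and 0 rose and 3 fell in OFF6. Neutrophil markers stayed low in all groups, with sums of 281 to 368 over 9 genes. Endothelial markers (8 genes) summed to 3755 to 3830 in TUM, 5673 to 6044 in OFF3, 4423 to 5279 in OFF6 and 6356 to 6491 in CTL, and 8 rose in OFF3. Pericyte and smooth muscle markers (9 genes) summed to 8594 to 8855 in TUM, 11279 to 12274 in OFF3, 10752 to 11016 in OFF6 and 10798 to 11021 in CTL, with 8 higher and 1 lower in OFF3. Myoblast and early muscle markers (6 genes) summed to 3746 to 3892 in TUM, 7285 to 7631 in OFF3, 9613 to 14459 in OFF6 and 1519 to 1619 in CTL, with 4 higher and 1 lower in OFF3. Muscle fibre, myoblast, fibroblast, endothelial, pericyte, osteoclast and some macrophage markers thus moved with withdrawal, and their part in the changes below was not tested. OFF6 replicate 2 stood apart: over the 43 genes its mean distance was 1.93 to OFF3 arrays and 2.89 to the other OFF6 arrays, whereas OFF6 replicates 1 and 3 lay 2.92 and 2.87 from OFF3 and 1.80 and 1.77 from OFF6. The same held over all genes. There its mean correlation was 0.9952 with OFF3 and 0.9911 with the other OFF6 arrays. Replicates 1 and 3 had 0.9883 and 0.9886 with OFF3 and 0.9947 and 0.9951 with OFF6. Calls at day 6 that changed without OFF6 replicate 2 are named below. As this array was picked out from the same values, fits without it are descriptions and no separate test.

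A group of 10 MMP genes lies in one row on chromosome 9, in the order Mmp13, Mmp12, Mmp1b, Mmp3, Mmp1a, Mmp10, Mmp8, Mmp27, Mmp20 and Mmp7, with no other protein-coding gene between them in the RefSeq table. The row includes the 2 members with the largest rise at day 3, Mmp3 and Mmp13. The 100 bases before the transcription start are shown for these 2, for 3 neighbours that hold the same letters, and for Mmp27, which does not hold them (RefSeq, GRCm38.p6, plus strand). Capitals mark TGANTCA, the letters bound by the AP-1 factors of the Fos and Jun families. The stretches are chr9:7445722-7445821 for Mmp3, chr9:7272414-7272513 for Mmp13, chr9:7347274-7347373 for Mmp12 (the window that holds the letters, of 2 listed starts), chr9:7502242-7502341 for Mmp10, chr9:7464041-7464140 for Mmp1a and chr9:7571296-7571395 for Mmp27.
Mmp3: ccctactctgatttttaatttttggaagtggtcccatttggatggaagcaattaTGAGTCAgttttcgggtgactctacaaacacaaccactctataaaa
Mmp13: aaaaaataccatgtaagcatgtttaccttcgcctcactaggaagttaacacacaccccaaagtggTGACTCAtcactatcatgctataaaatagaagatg
Mmp12: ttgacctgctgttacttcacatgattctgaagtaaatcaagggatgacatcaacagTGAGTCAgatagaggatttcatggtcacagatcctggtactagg
Mmp10: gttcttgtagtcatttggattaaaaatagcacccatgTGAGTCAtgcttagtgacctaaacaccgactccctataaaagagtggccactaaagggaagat
Mmp1a: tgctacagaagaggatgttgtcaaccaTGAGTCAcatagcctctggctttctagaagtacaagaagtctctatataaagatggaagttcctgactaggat
Mmp27: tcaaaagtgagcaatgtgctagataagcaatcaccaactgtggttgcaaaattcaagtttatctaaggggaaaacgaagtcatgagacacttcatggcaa
Windows of 250 bases before to 50 after a listed start were searched on both strands. TGANTCA was found for 8 of the 10 genes of the row, Mmp13, Mmp12, Mmp1b, Mmp3, Mmp1a, Mmp10, Mmp20 and Mmp7, and for none of the other 20 members with a window. Counted by window, 8 of the 12 windows of the row and 8 of the 33 windows of all members held it, against 7.81% of all 32851 mouse windows. GGAATG, the letters bound by the TEAD factors that YAP1 works through, were found for Adamts13 and Timp1 among the 30 members with a window. By window these were 2 of 33, against 14.7% of all windows. A match in these letters is a description and was not tested as a site.

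**Figure D1:**
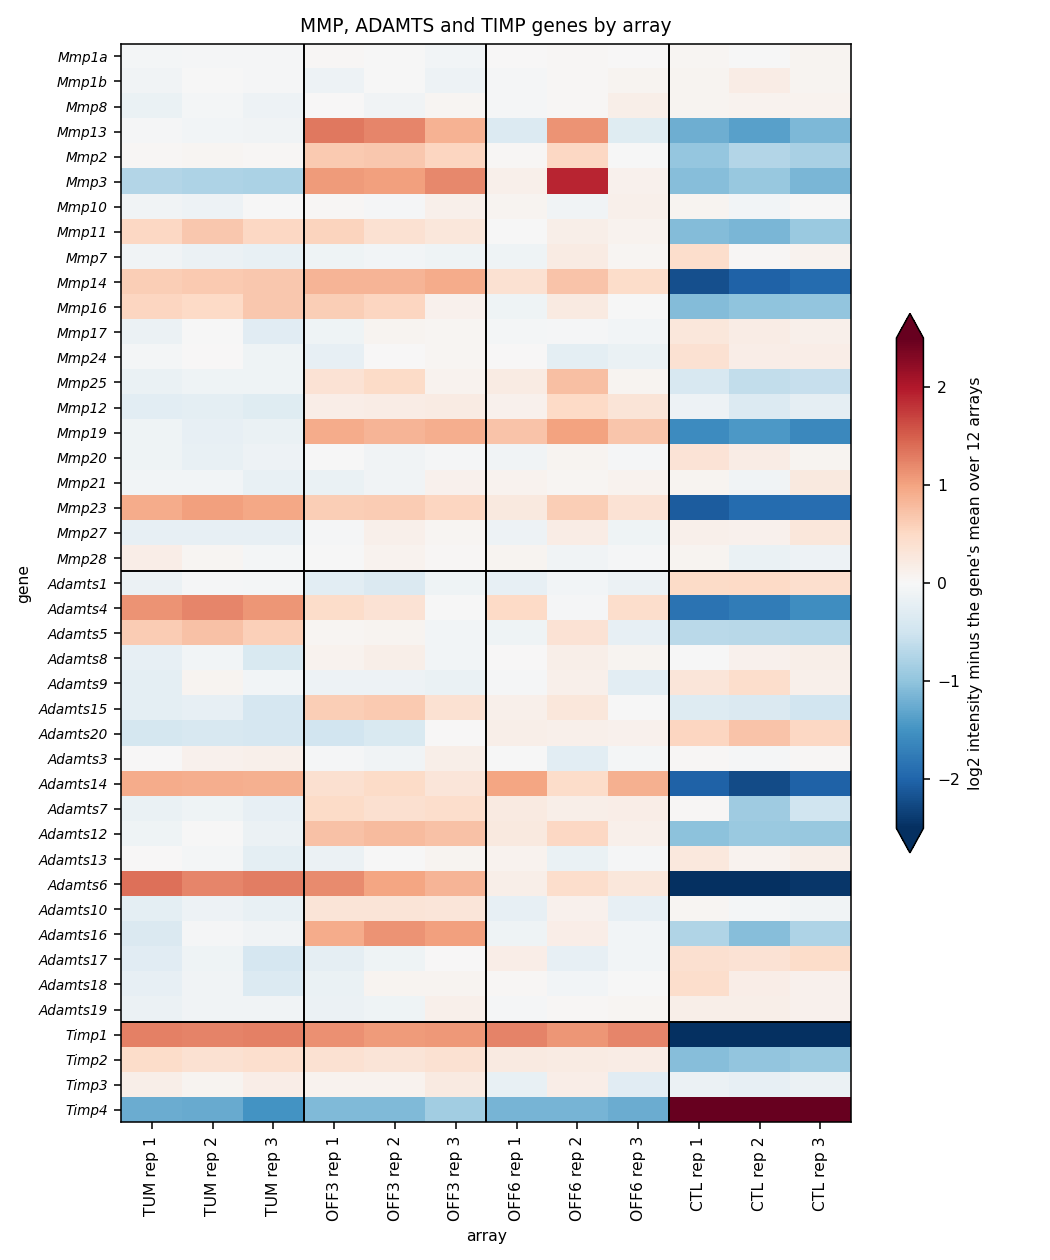
Log2 intensity of the 43 genes (rows, grouped by role) on each of the 12 arrays (columns: TUM, OFF3, OFF6, CTL), as the difference from the gene's own mean over 12 arrays; the colour scale ends at 2.5 log2 units either way. Timp1 and Timp4 show the strongest contrast of tumours with CTL, in opposite directions, and OFF6 replicate 2 resembles the OFF3 columns in several rows.

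The comparison of OFF3 with TUM sets these genes 3 days after removal of the inducer against day 0. Doxycycline and YAP1 expression were withdrawn together, so here and at day 6 their separate effects cannot be told apart. Mmp3 (stromelysin 1), Mmp13 (collagenase 3), Mmp19 and Adamts16 rose at least 2-fold, and no member fell that far. In all, 14 of 43 genes rose and 4 fell at an adjusted p under 0.05 (limma, Benjamini-Hochberg over all genes). Over all genes 13.4% rose and 16% fell, and 29.4% passed either way. The median log2 difference was 0.10 over the 43 genes and 0.02 over all genes. A difference of at least 1 log2 unit was reached upward by the 4 genes above, against 1.83% of all genes, and downward by 0, against 1.98%.

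Among the stromelysins, which cut proteoglycans, laminin and fibronectin, Mmp3 (probe set 10583071) had log2 intensities of 7.96, 7.91 and 8.09 in OFF3, against 6.15, 6.12 and 6.11 in TUM. The groups did not overlap, and all OFF3 arrays were more than 1 log2 unit above all TUM arrays. The difference was 1.86 ± 0.35 (SE), a 3.64-fold rise (adjusted p = 0.00139). Its standard error draws on the spread of all 4 groups, OFF6 included. Mmp10 did not pass the test, with 5.14, 5.08 and 5.25 in OFF3, against 5.03, 4.98 and 5.11 in TUM.

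The genes grouped as collagenases carry the name of enzymes that cleave the triple helix of fibrillar collagen. Among them Mmp13 (probe set 10583044) had 8.78, 8.68 and 8.33 in OFF3, against 7.42, 7.38 and 7.36 in TUM. All OFF3 arrays were higher than all TUM arrays. The rise was 1.21 ± 0.29 on the log2 scale, or 2.31-fold (adjusted p = 0.00728). The other 3 collagenases, Mmp1a, Mmp1b and Mmp8, did not pass and lay below the median level of all genes, a log2 intensity of 7.18. Over the whole row on chromosome 9, 4 of 10 genes rose and 0 fell: Mmp3, Mmp13, Mmp12 and Mmp27. Mmp12, the macrophage elastase, rose by 0.45 ± 0.09 at a low level (mean 6.08 in OFF3, 5.63 in TUM and 5.66 in CTL). In the same comparison 2 of the 10 macrophage markers were higher and 2 lower. The neutrophil markers lay between 4.47 and 5.64 in OFF3 and between 4.40 and 5.59 in TUM. Mmp27 rose by 0.26 ± 0.09 at a low level within these ranges (mean 4.99 in OFF3 and 4.73 in TUM). It is not shown to be above background. Its call, like those of Mmp25 (0.43, adjusted p = 0.0475) and Adamts8 (0.28, adjusted p = 0.0315), was lost under quantile normalisation. Leaving out 1 array also ended these calls, any TUM array for Mmp25 and Mmp27, TUM replicate 1 or 3 for Adamts8, OFF3 replicate 2 for all of them, OFF3 replicate 1 for Mmp25 and Adamts8 and OFF3 replicate 3 for Mmp27; Mmp25 lost its call as well without any CTL array and without OFF6 replicate 1.

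Mmp19 had log2 intensities of 9.40, 9.34 and 9.39 in OFF3, against 8.37, 8.26 and 8.31 in TUM. Replicates within a group differed by far less than the groups did. The difference of 1.06 ± 0.08 corresponds to 2.08-fold (adjusted p = 1.38e-06). Mmp2, the gelatinase that also cuts basement membrane collagen, was bright in all groups and had 12.38, 12.42 and 12.28 in OFF3, against 11.76, 11.79 and 11.76 in TUM (difference 0.59 ± 0.12, adjusted p = 0.00209). Mmp14, the membrane-type MMP that activates the Mmp2 precursor, differed by 0.23 ± 0.09 and did not pass (adjusted p = 0.0911). Mmp23 was the only one of the 21 MMP genes to fall in this comparison, with 9.64, 9.66 and 9.57 in OFF3, against 9.97, 10.05 and 9.99 in TUM (difference -0.38 ± 0.09, adjusted p = 0.00561).

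The ADAMTS genes moved in both directions, with 6 of 18 higher and 3 lower. Adamts16 had 8.34, 8.53 and 8.43 in OFF3, against 7.05, 7.36 and 7.31 in TUM, a rise of 1.19 ± 0.11 or 2.28-fold (adjusted p = 5.98e-06). The OFF3 arrays lay wholly above the TUM arrays. Both genes grouped for cleaving cartilage oligomeric matrix protein rose, Adamts12 by 0.85 ± 0.09 and Adamts7 by 0.61 ± 0.16. Adamts10, which binds fibrillin microfibrils, rose by 0.50 ± 0.09.
The 7 proteoglycanases, enzymes that cut aggrecan and versican, split into 2 that rose and 2 that fell. Adamts15 was higher by 0.85 ± 0.10, and Adamts8 by the 0.28 given above. Adamts4 had 8.80, 8.71 and 8.32 in OFF3, against 9.46, 9.55 and 9.43 in TUM, and Adamts5 had 9.76, 9.79 and 9.65 in OFF3, against 10.36, 10.45 and 10.32 in TUM. These aggrecanases fell by 0.87 ± 0.15 and 0.64 ± 0.12 on the log2 scale (adjusted p = 0.00063 and 0.00106). Adamts14, which removes the amino-terminal propeptide of procollagen, had 9.26, 9.34 and 9.17 in OFF3, against 9.78, 9.77 and 9.76 in TUM. It fell by 0.51 ± 0.12 (adjusted p = 0.00483). Adamts17 had 8.12, 8.24 and 8.34 in OFF3 and Adamts1 had 8.46, 8.35 and 8.60 in OFF3, and neither passed against TUM. Of the 5 Adamts17 probe sets 1, not the one kept, was higher in OFF3, and of the 6 Adamts9 probe sets 1, not the one kept, was lower. Adamts3, another procollagen N-proteinase, did not pass with the probe set kept, but 4 of its 16 probe sets were lower in OFF3 and 5 of 16 in OFF6, against TUM.

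Of the inhibitors, Timp1 had 11.51, 11.43 and 11.46 in OFF3, against 11.63, 11.61 and 11.63 in TUM. Timp2 had 12.31, 12.25 and 12.30 in OFF3, against 12.38, 12.31 and 12.35 in TUM, and Timp3 had 11.28, 11.28 and 11.43 in OFF3, against 11.34, 11.26 and 11.37 in TUM. Their differences were -0.16 ± 0.07, -0.06 ± 0.06 and 0.01 ± 0.10, and none of these 3 passed the test. Timp4 rose by 0.31 ± 0.09 at a low level, with 5.12, 5.12 and 5.35 in OFF3, against 4.98, 4.95 and 4.73 in TUM (adjusted p = 0.018). Both groups lay within the range of the neutrophil markers (4.47 to 5.64 in OFF3, 4.40 to 5.59 in TUM). Timp4 is thus not shown to be above background in either group. Without TUM replicate 3 or without OFF3 replicate 3 its difference was 0.23 and did not pass.

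**Figure D2:**
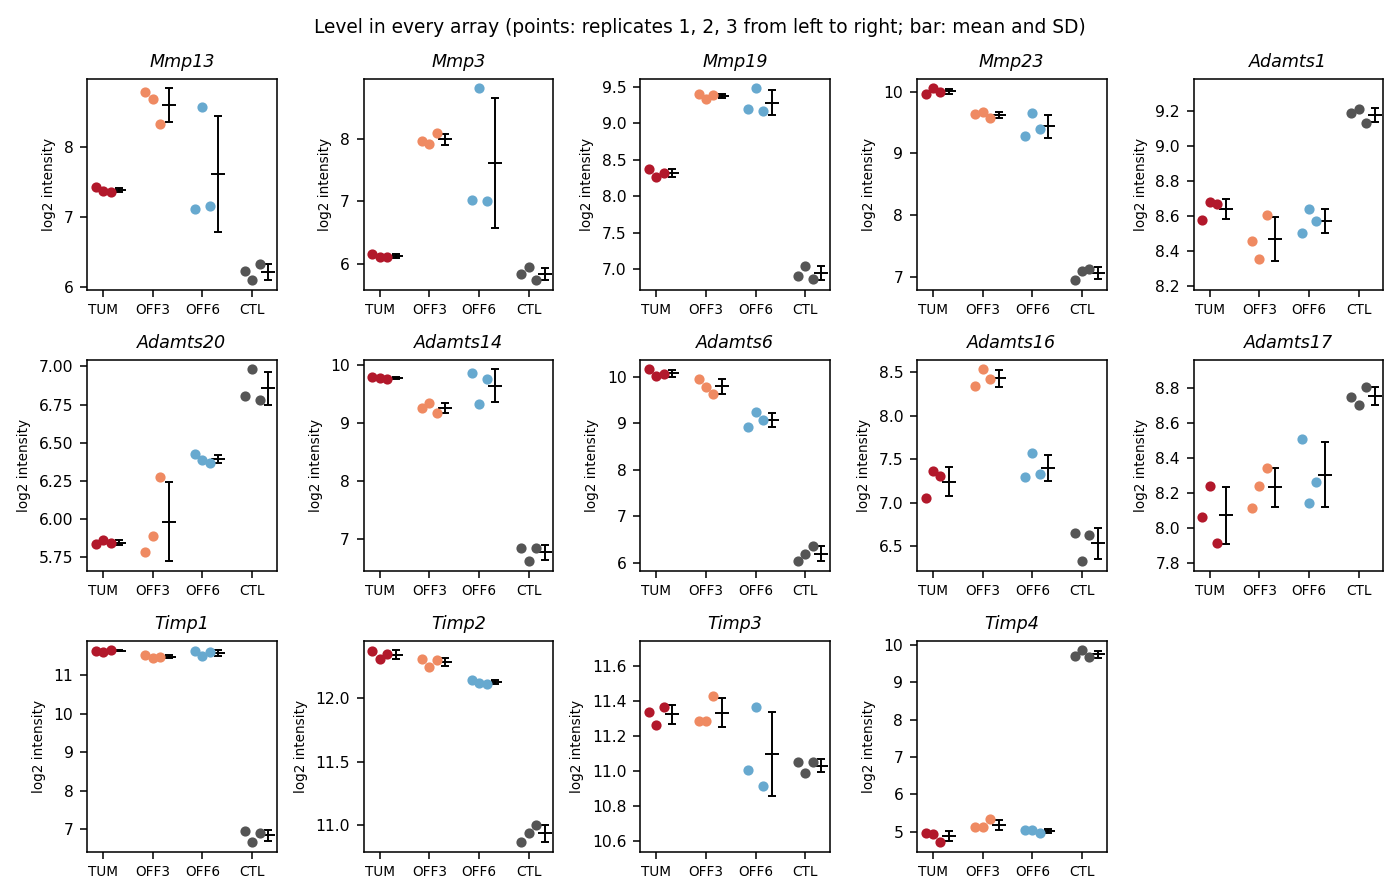
Log2 intensity of 14 genes whose values on each array are given in the text, 1 panel per gene, for TUM, OFF3, OFF6 and CTL (points are replicates 1, 2 and 3 from left to right; bars are the mean and SD). Mmp2, Mmp10, Adamts4 and Adamts5, for which the text also gives values on single arrays, are not shown. Mmp3 and Mmp13 are highest in the 3 OFF3 arrays and in OFF6 replicate 2, while Timp1 is high and Timp4 low in all 9 tumour arrays relative to CTL.

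At 6 days, 8 of the 43 genes were higher and 7 lower than at day 0, where 14.9% of all genes rose and 16.6% fell (31.5% either way). The members' median difference was 0.11 and that of all genes 0.05. OFF3 and OFF6 were both set against the same TUM arrays, so the following values are given beside the 3-day ones and are not a second test of them.

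Mmp3 had 7.01, 8.80 and 6.996 in OFF6, against 6.15, 6.12 and 6.11 in TUM. All OFF6 arrays were higher, but replicate 2 lay more than 1 log2 unit above the others of its group. The difference was 1.48 ± 0.35 (adjusted p = 0.00583) with all arrays and 0.88 (adjusted p = 1.63e-06) without OFF6 replicate 2. Mmp13 had 7.11, 8.57 and 7.16 in OFF6, against 7.42, 7.38 and 7.36 in TUM, so that replicate 2 was above and the other 2 were below all TUM arrays. Its difference of 0.23 ± 0.29 did not pass (adjusted p = 0.597), and without replicate 2 it was -0.25, also not past the test.
Mmp19 had 9.19, 9.48 and 9.17 in OFF6, against 8.37, 8.26 and 8.31 in TUM, and all OFF6 arrays were higher (difference 0.96 ± 0.08, adjusted p = 2.37e-06). Mmp12 was higher by 0.58, Adamts15 by 0.43 and Adamts12 by 0.39. Mmp25, a membrane-type MMP known from human leukocytes, was higher by 0.47, and Adamts8 by 0.29. The calls of Mmp25 and Adamts8 were lost without OFF6 replicate 2, without TUM replicate 1 or 3, and further without TUM replicate 2 for Mmp25 and OFF6 replicate 3 for Adamts8. Adamts20 had 6.42, 6.39 and 6.37 in OFF6, against 5.83, 5.86 and 5.84 in TUM, with no overlap (difference 0.55 ± 0.11, adjusted p = 0.00144).

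Adamts6 had the largest fall at day 6, with 8.93, 9.23 and 9.06 in OFF6, against 10.16, 10.01 and 10.06 in TUM. All OFF6 arrays were below all TUM arrays, and the difference of -1.004 ± 0.11 was 2.01-fold (adjusted p = 1.27e-05). It was the only member to fall by at least 1 log2 unit, as 2.14% of all genes did, and Mmp3 the only member to rise that far, as 2.33% did. Mmp23 had 9.28, 9.65 and 9.39 in OFF6, against 9.97, 10.05 and 9.99 in TUM, a fall of 0.57 ± 0.09 (adjusted p = 0.0003).
Adamts4 fell by 0.84 and Adamts5 by 0.64, sizes close to those at day 3. Mmp16, a membrane-type MMP, fell by 0.53 ± 0.12 and Mmp11, stromelysin 3, by 0.50 ± 0.08. Timp2, the inhibitor that also serves as a link between Mmp14 and the Mmp2 precursor, had 12.15, 12.12 and 12.11 in OFF6, against 12.38, 12.31 and 12.35 in TUM. The groups did not overlap, and it fell by 0.22 ± 0.06 (adjusted p = 0.00905). Adamts14 had 9.85, 9.33 and 9.75 in OFF6 (-0.13), Adamts17 8.51, 8.14 and 8.26 (0.23) and Adamts1 8.51, 8.64 and 8.57 (-0.07), and none of these 3 passed against TUM with all arrays and the probe set kept. Of the 5 Adamts17 probe sets, however, 2 were higher in OFF6 and 0 lower, with a range of 0.09 to 0.42. Timp1 had 11.61, 11.48 and 11.60 in OFF6, against 11.63, 11.61 and 11.63 in TUM, and did not pass (adjusted p = 0.595). Timp3 had 11.01, 11.37 and 10.91 in OFF6, against 11.34, 11.26 and 11.37 in TUM, a difference of -0.23 that did not pass with all arrays and was -0.36 without replicate 2 (adjusted p = 0.00119). Without that array Mmp14 (-0.24, adjusted p = 0.0362) and Adamts17 (0.31, adjusted p = 0.0338) also passed.

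**Figure D3:**
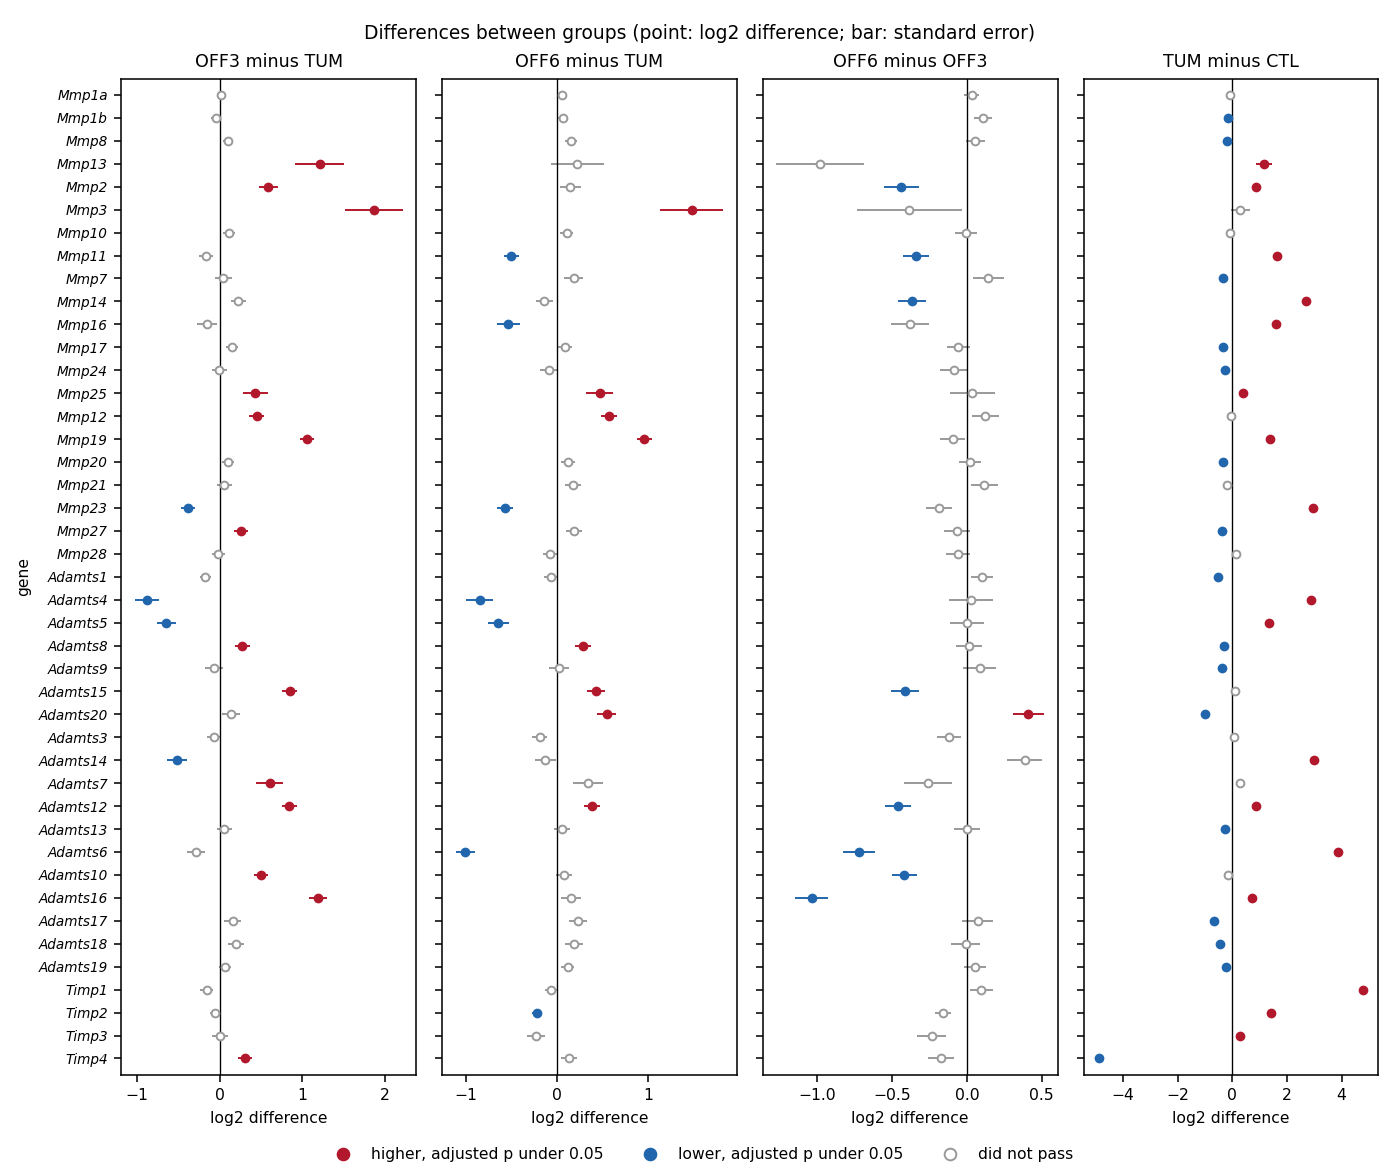
Log2 difference with its standard error for the member genes (rows) in the comparisons named above each panel; red marks genes called higher, blue genes called lower, and open grey genes that did not pass at an adjusted p of 0.05. The differences from day 0 run between -1.004 and 1.86, and the TUM minus CTL differences run from -4.86 for Timp4 to 4.78 for Timp1.

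Between day 3 and day 6, 8 of the 43 genes were lower in OFF6 than in OFF3 and 1 was higher. Over all genes 4.38% were lower and 6.05% higher (10.4% either way), and 71.6% of all calls were higher with arrays centred on their median, against 58.0% without centring. Adamts16 had 7.29, 7.57 and 7.33 in OFF6, against 8.34, 8.53 and 8.43 in OFF3, and was the only member lower by at least 1 log2 unit, as 0.161% of all genes were; 0 members were higher by that much, as 0.381% of all genes were (difference -1.04 ± 0.11, adjusted p = 0.000518). Its OFF6 arrays were also close to the 7.05, 7.36 and 7.31 of TUM, and OFF6 and TUM did not differ at the threshold. Adamts6 had 8.93, 9.23 and 9.06 in OFF6, against 9.96, 9.78 and 9.64 in OFF3, a difference of -0.72 ± 0.11 (adjusted p = 0.00273).
The other 6 lower genes were Adamts12 (-0.46), Mmp2 (-0.44), Adamts10 (-0.42), Adamts15 (-0.41), Mmp14 (-0.36) and Mmp11 (-0.34). Under quantile normalisation Mmp2 lost its call (adjusted p = 0.0519) and Mmp13 gained one (-0.96, adjusted p = 0.0487). Mmp2 had 11.77, 12.26 and 11.73 in OFF6, against 12.38, 12.42 and 12.28 in OFF3, with replicate 2 again nearest to OFF3. Fibroblast markers were lower in the same comparison for 3 of 9 genes and higher for 0. Endothelial markers were lower for 4 of 8 and higher for 0, and pericyte and smooth muscle markers lower for 3 of 9 and higher for 1. Macrophage markers were lower for 2 of 10 and higher for 0, and osteoclast markers lower for 1 of 9 and higher for 0. Skeletal fibre markers were lower for 2 of 8 and higher for 2, and myoblast markers lower for 0 of 6 and higher for 3. The part of these cell types was not tested. Adamts20 was the 1 higher gene, with 6.42, 6.39 and 6.37 in OFF6, against 5.78, 5.89 and 6.28 in OFF3 (difference 0.41 ± 0.11, adjusted p = 0.029).

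OFF6 replicate 2 was picked out by its closeness to OFF3 in these same values, so leaving it out tends to widen OFF6 minus OFF3. The adjusted p-values of the fit without it are therefore descriptive. Without OFF6 replicate 2, 13 of the 43 genes were lower in OFF6 than in OFF3 and 2 higher, beside 2473 lower and 2401 higher of all 19937 genes in that fit. Mmp3 differed by -0.38 (adjusted p = 0.584) with all arrays and by -0.98 (adjusted p = 2.27e-06) without replicate 2. Mmp13 differed by -0.98 (adjusted p = 0.0519) with all arrays and by -1.46 (adjusted p = 2.81e-06) without it. Mmp16 (-0.48), Timp3 (-0.37) and Mmp23 (-0.29) also passed as lower and Adamts14 (0.54) as higher without it. Of the 9 calls only those of Adamts16 and Adamts6 held when each array in turn was left out. The other 7 were lost without OFF6 replicate 3, 6 of them (all but Adamts12) also without OFF6 replicate 1, and Adamts15, Adamts20, Mmp11, Mmp14 and Mmp2 also without OFF3 replicate 1 or 2. Mmp14 was lost without OFF3 replicate 3 as well, and Mmp2 without CTL replicate 3 or any TUM array. In the model of only the 6 OFF6 and OFF3 arrays, Adamts16 alone of the 43 kept its call, among 30 genes called in all.

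**Figure D4:**
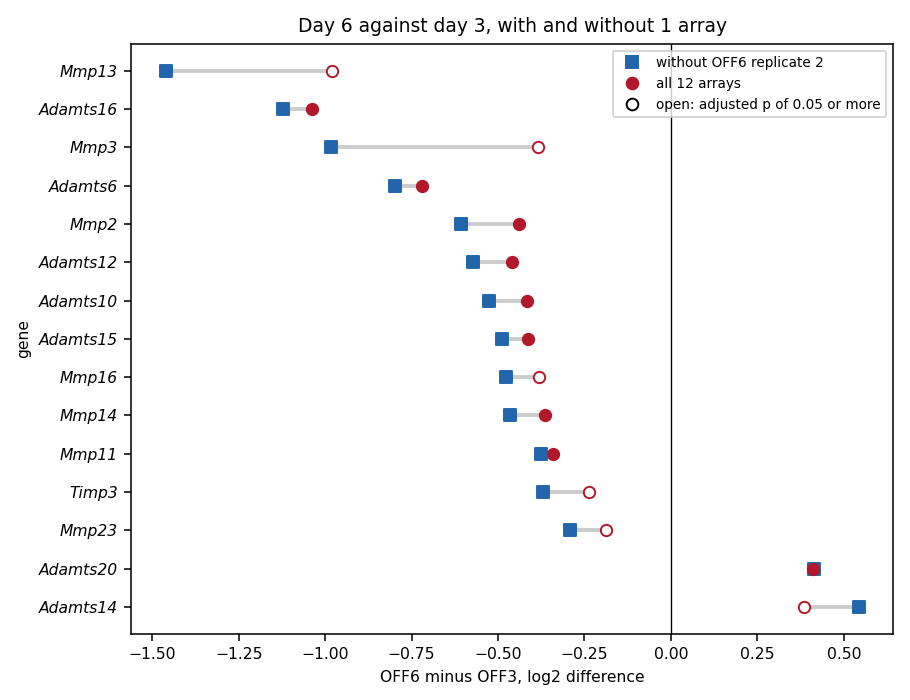
OFF6 minus OFF3, in log2 units, for the 15 genes called in either fit, with all 12 arrays (circles) and without OFF6 replicate 2 (squares); open symbols did not reach an adjusted p under 0.05. Leaving the array out moved Mmp3 to -0.98 and Mmp13 to -1.46, and both symbols then become filled. The array was picked out by its closeness to OFF3 in these data, so the shift is a description.

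Tumours at day 0 were also compared with uninduced muscle, a comparison between a tumour and a normal tissue of different cell makeup. Grafting, the NOD/SCID hosts and doxycycline also set TUM apart from CTL, and these effects cannot be told apart. Of the 43 genes 17 were higher and 16 lower in TUM, where 30.3% of all genes were higher and 45.9% lower (76.2% either way). The members' median difference was 0.08 and that of all genes -0.15. At least 1 log2 unit higher were 12 members, against 13.7% of all genes, and 2 were that much lower, against 8.65%.

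The inhibitors held both extremes. Timp1 (probe set 10598976) had 11.63, 11.61 and 11.63 in TUM, against 6.96, 6.67 and 6.91 in CTL, a difference of 4.78 ± 0.07 or 27.4-fold (adjusted p = 2.64e-13). Timp4 (probe set 10547022), an inhibitor known to be abundant in striated muscle, had 4.98, 4.95 and 4.73 in TUM, against 9.71, 9.86 and 9.68 in CTL. It was lower, with a measured difference of -4.86 ± 0.09 (adjusted p = 5.48e-13), whose size is a lower bound because its tumour level lay within the 4.40 to 5.59 of the neutrophil markers in TUM and is not shown to be above background. In the same comparison all 8 skeletal fibre markers were lower. Timp2 had 12.38, 12.31 and 12.35 in TUM, against 10.87, 10.94 and 10.999 in CTL, and was higher by 1.41 ± 0.06. Timp3 had 11.34, 11.26 and 11.37 in TUM, against 11.05, 10.99 and 11.05 in CTL, and was higher by 0.29 ± 0.10 (adjusted p = 0.0173). That call was lost under quantile normalisation (adjusted p = 0.0587) and without CTL replicate 2 (0.0512) or TUM replicate 3 (0.0561).

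Among the proteases, Adamts6 (probe set 10406982) had 10.16, 10.01 and 10.06 in TUM, against 6.04, 6.19 and 6.36 in CTL, a 14.7-fold difference (3.88 ± 0.11). Adamts14 had 9.78, 9.77 and 9.76 in TUM, against 6.84, 6.62 and 6.84 in CTL (3.00 ± 0.12), and Mmp23 had 9.97, 10.05 and 9.99 in TUM, against 6.95, 7.10 and 7.13 in CTL (2.95 ± 0.09). For these genes the lowest TUM array stood at least 2 log2 units above the highest CTL array. Adamts4 was higher by 2.87, Mmp14 by 2.70, Mmp11 by 1.63, Mmp16 by 1.59, Mmp19 by 1.37 and Adamts5 by 1.36. Mmp19 had 6.91, 7.05 and 6.87 in CTL. Adamts16, with 6.65, 6.33 and 6.62 in CTL, was higher in TUM by 0.71. Mmp13 had 7.42, 7.38 and 7.36 in TUM, against 6.23, 6.10 and 6.34 in CTL, and was higher by 1.17 ± 0.29. Mmp3 did not pass, with 6.15, 6.12 and 6.11 in TUM, against 5.83, 5.94 and 5.74 in CTL (0.29 ± 0.35, adjusted p = 0.462). The model shares 1 spread per gene over all groups, and without OFF6 replicate 2 the same difference passed (adjusted p = 0.00183), as it did in the model of only the 6 TUM and CTL arrays (adjusted p = 0.00332).

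The lower proteases differed less. Adamts20 had 5.83, 5.86 and 5.84 in TUM, against 6.81, 6.98 and 6.78 in CTL (-1.01 ± 0.11). Adamts17 had 8.06, 8.24 and 7.92 in TUM, against 8.74, 8.70 and 8.81 in CTL (-0.68 ± 0.10), and Adamts1, a proteoglycanase, had 8.58, 8.68 and 8.67 in TUM, against 9.18, 9.21 and 9.13 in CTL (-0.53 ± 0.07). Neither gene's groups overlapped. The remaining 12 lower genes differed by -0.16 to -0.44. Of the 21 members below the median level 13 were lower (61.9%) and 1 higher (4.76%). Among all genes below that level 58.1% were lower and 10.2% higher. The medians were -0.24 for these members and -0.23 for these genes. Of the 6 Adamts9 probe sets 2 were lower, the one kept (-0.37) among them, with a range of -0.37 to 0.15. Adamts3 did not pass with the probe set kept (0.08), but 7 of its 16 probe sets were higher in TUM, with a range of -0.05 to 0.73 over the 16.

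After 6 days without doxycycline 20 of the 43 genes were higher and 9 lower than in CTL, against 28.1% and 36.1% of all genes (64.2% either way). Cell makeup, grafting, the NOD/SCID hosts and the earlier doxycycline set OFF6 apart from CTL as well. At least 1 log2 unit higher were 14 and lower 1, against 10.7% and 6.5% of all genes. Timp1 had 11.61, 11.48 and 11.60 in OFF6, against 6.96, 6.67 and 6.91 in CTL, and was 26.3-fold higher. Timp4 had 5.05, 5.05 and 4.97 in OFF6, against 9.71, 9.86 and 9.68 in CTL, and was lower by at least 4.72 log2 units (a lower bound, as above). The skeletal fibre markers were lower than in CTL for 8 of 8 genes at day 6, and higher than in TUM for 7 of 8. Adamts6 was higher by 2.88, Adamts14 by 2.88, Mmp14 by 2.56, Mmp23 by 2.38, Mmp19 by 2.34 and Adamts4 by 2.02. Mmp3 was higher by 1.77 with all arrays and by 1.17 without OFF6 replicate 2, and Mmp13 by 1.39 and 0.91. Without that array 20 members were higher and 10 lower, beside 5627 higher and 6593 lower of all 19937 genes in that fit. Adamts18 was no longer called (adjusted p = 0.0885), and Adamts10 (-0.18, adjusted p = 0.0296) and Mmp27 (-0.29, adjusted p = 0.00328) were. Timp3 did not differ at the threshold (0.07 ± 0.10).

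Genes that act with these proteases were taken as lists. Their counts in OFF3 against TUM stand beside 13.4% of all genes that rose and 16% that fell. Of 15 measured genes of the plasminogen system and other protease regulators, 4 rose and 4 fell in OFF3 against TUM. Plaur, the urokinase receptor, fell by 1.75 and Plau, urokinase, by 1.20, whereas Pcsk6, a proprotein convertase, rose by 1.33. Both urokinase genes were higher in TUM than in CTL, by 2.89 and 2.39.
Of 11 ADAM genes, the membrane-bound relatives, 4 rose and 3 fell in OFF3. Adam8 fell by 1.39 and Adam12, known from differentiating and regenerating muscle, rose by 1.23. The largest rise, 1.26, was that of another ADAM gene. Among 7 ADAMTS-like genes, which lack the protease domain, 2 rose and 0 fell, with Adamtsl1 higher by 0.66 at day 3 and by 1.10 at day 6. Of 9 cathepsins 5 rose and 1 fell. The 1 that fell, by 1.43, was Ctsk, the collagen-cutting cathepsin of osteoclasts.

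Of 17 substrate genes 10 rose and 0 fell in OFF3 against TUM, with a median of 0.35, beside 13.4% and 16% of all genes. Dcn (decorin) rose by 1.43, Vwf (von Willebrand factor) by 1.18, Eln (elastin) by 1.15 and Col3a1 (collagen III) by 0.89. Several of these are also fibroblast or endothelial markers, of which 8 of 9 and 8 of 8 rose. At day 6 the count was 6 higher and 2 lower, beside 14.9% and 16.6% of all genes.
Among 11 measured AP-1, ETS and related factors, 0 rose and 4 fell in OFF3 (36.4% called), where 29.4% of all genes were called either way. Fosl1, the Fos-family member FRA1, fell by 2.34 and was higher in TUM than in CTL by 3.28. Ets1 fell by 0.54 and Fosl2 by 0.50, while Fos (-0.31) and Jun (-0.11) did not pass.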

How the data were processed

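The values are those the authors deposited, linear intensity per probe set after RMA, per the submitters' processing notes; the RMA version is not given in the sources used here. Of 34760 probe sets on each of the 12 arrays, 21640 carried 1 symbol. Where a gene had several (954 genes, among them Adamts3, Adamts9 and Adamts17) the one with the highest mean log2 intensity was kept. Array medians ran from 86.74 to 93.05, and no pair of arrays was identical. Precision is limited by 3 arrays per group (median SE 0.0863, 12.2 degrees of freedom).

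The model, with 1 mean for each group over the 12 arrays, used limma 3.58.1 (lmFit, eBayes) in R 4.3.3. Tests were two-sided, with Benjamini-Hochberg adjustment over 19937 genes in each of 5 comparisons. An adjusted p under 0.05 is a call, and differences are in log2 units ± SE. The fit was tested on simulated data. Levels of single genes were not set against each other; members were only placed above or below the median of all genes, by the mean of 12 arrays. The members and lists were chosen with earlier results of these data known. Values on each array are given for the TIMPs, for members called with at least 1 log2 unit after withdrawal and for the 4 largest rises and falls in TUM minus CTL; Mmp2, Mmp10, Adamts4 and Adamts5 were added with values known. Same-numbered arrays did not deviate together (correlations of -0.29 to 0.249), so numbers were not taken as pairs. Plots were drawn with matplotlib 3.10.9 and pandas 2.3.3 in Python 3.11.15. Alternatives were 2 other probe set rules, a level filter, 2 other scalings, another variance prior, weights per array, a replicate block, models of 6 arrays, stricter thresholds and leaving out each array.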

Additional observations from a re-analysis of the deposited data

Results flagged for a closer look

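For 9 genes the change since day 0 differed between day 6 and day 3 when that difference itself was tested (OFF6 minus OFF3, limma, adjusted p under 0.05). The log2 difference was -1.04 ± 0.11 for Adamts16, -0.72 ± 0.11 for Adamts6, -0.46 ± 0.09 for Adamts12, -0.44 ± 0.12 for Mmp2, -0.42 ± 0.09 for Adamts10, -0.41 ± 0.10 for Adamts15, -0.36 ± 0.09 for Mmp14, -0.34 ± 0.08 for Mmp11 and 0.41 ± 0.11 for Adamts20. Of these, Adamts16, Adamts12, Adamts15, Mmp2 and Adamts10 had risen at day 3, whereas Adamts6, Mmp14, Mmp11 and Adamts20 had not passed at day 3. Over all genes 10.4% passed in this comparison. All 9 differences kept their call without OFF6 replicate 2. That array was picked out by its closeness to OFF3, so this is no separate support for the calls. Of the 9 differences, 7 (all but Adamts16 and Adamts6) lost their call without OFF6 replicate 3, and 6 of those 7 (not Adamts12) without OFF6 replicate 1. Adamts16 alone kept it in the model of only the 6 arrays compared.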

How the results depend on the processing

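Member counts are given as higher and lower. Leaving out each array in turn gave 10 to 15 and 4 to 5 for OFF3 minus TUM (14 and 4 with all arrays), 6 to 9 and 7 to 9 for OFF6 minus TUM (8 and 7), 0 to 2 and 2 to 13 for OFF6 minus OFF3 (1 and 8), 15 to 19 and 12 to 17 for TUM minus CTL (17 and 16), and 20 and 6 to 10 for OFF6 minus CTL (20 and 9). With genes above the median level only, 7 were higher in OFF3 minus TUM and 2 in OFF6 minus TUM, and 3 were lower in TUM minus CTL and 3 in OFF6 minus CTL. With array weights 10 were lower in OFF3 minus TUM, 15 higher in OFF6 minus TUM, and 8 higher and 19 lower in OFF6 minus OFF3. At an adjusted p under 0.01, 9 were higher in OFF3 minus TUM, 0 higher and 3 lower in OFF6 minus OFF3, and 5 lower in OFF6 minus CTL. With at least 1 log2 unit, 4 were higher and 0 lower in OFF3 minus TUM, 1 and 1 in OFF6 minus TUM, 0 and 1 in OFF6 minus OFF3, and 2 and 1 were lower in TUM minus CTL and OFF6 minus CTL. In OFF6 minus OFF3, 2 were higher under quantile normalisation, median centring, and trended and robust variance, and 0 were higher and 1 lower in the model of 6 arrays. Without a call, the sign changed for Timp3 in OFF3 minus TUM (-0.043 centred, -0.039 with array weights, -0.038 to 0.034 with 1 array left out), Adamts20 there (-0.0082 to 0.24 with 1 array left out), Adamts14 and Mmp13 in OFF6 minus TUM (-0.23 to 0.030 and -0.25 to 0.48 with 1 array left out; Mmp13 -0.20 with array weights), Adamts17 in OFF6 minus OFF3 (-0.028 to 0.15 with 1 array left out) and Timp3 in OFF6 minus CTL (-0.069 with array weights, -0.070 to 0.16 with 1 array left out). The cause of these shifts was not tested beyond the fewer genes, arrays or calls that a stricter setting allows. With a replicate block, 14 and 4 members passed in OFF3 minus TUM, 8 and 7 in OFF6 minus TUM, 1 and 8 in OFF6 minus OFF3, 17 and 16 in TUM minus CTL, and 20 and 8 in OFF6 minus CTL. Over all genes, OFF6 minus OFF3 had 1206 higher and 874 lower calls, against 1431 and 568 with median centring (71.6% higher in place of 58.0%), 4120 and 4304 with array weights, 318 to 2401 and 134 to 2473 with 1 array left out (the highest without OFF6 replicate 2, the lowest without OFF6 replicate 3), 324 and 143 at an adjusted p under 0.01, and 19 and 11 in the model of 6 arrays. With array weights OFF3 minus TUM had 6181 and 4994 calls (2671 and 3197 without them) and OFF6 minus TUM 5658 and 4887 (2962 and 3317 without them). At an adjusted p under 0.01, 1723 genes were higher in OFF3 minus TUM and 1931 in OFF6 minus TUM. With genes above the median level only, 3373 in place of 9161 were lower in TUM minus CTL and 3240 in place of 7188 in OFF6 minus CTL. Signals of the 21 members below the median level limit what can be called for them. These are Timp4, Adamts8, Adamts13, Adamts15, Adamts18, Adamts19, Adamts20 and several MMP genes. The MMP genes among them are Mmp1a, Mmp1b, Mmp3, Mmp7, Mmp8, Mmp10, Mmp12, Mmp17, Mmp20, Mmp21, Mmp24, Mmp25, Mmp27 and Mmp28.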
